A study of Mus musculus with 52 samples.

Results

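The binding and chromatin landscape of 10 genes of insulin and insulin-like growth factor 1 (IGF1) signalling was read from deposited peak lists of mouse brown fat (brown adipose tissue, BAT), out of 21631 protein-coding genes on chromosomes 1 to 19 and X. The 10 genes were taken by name: the receptors Insr and Igf1r, the adaptors Irs1 and Irs2, the phosphoinositide 3-kinase subunits Pik3ca and Pik3r1, the kinases Akt1 and Akt2, the transcription factor Foxo1 and the secreted protease Pappa. The locus of a gene was its GRCm38.p6 body plus 10 kb on each side, and all 10 were found. The series mapped, by chromatin immunoprecipitation sequencing (ChIP-seq), where transcription factors, a coactivator and acetylated histone H3 lysine 27 (H3K27ac, found at promoters and enhancers in use) sit in BAT kept at room temperature (RT) or put in the cold for 4 h. It held 52 samples, of which 35 were ChIP libraries with a peak list each and 17 were inputs, not used here.

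All groups were BAT. PPARG (3 RT, 3 cold), ERR1 (1 RT, 1 cold) and 6 H3K27ac libraries (3 RT, 3 cold, called the WT cohort here) came from mice labelled WT. PPARA (2 RT, 3 cold) was pulled down from HA-PPARA KI mice, CEBPA (3 RT) from HA-CEBPA KI mice and CEBPB (2 cold) from HA-CEBPB KI mice. PGC1A (3 cold) was pulled down from PGC1A-HIsHA KI mice by 2 of its labels, while the genotype label of the PGC1A library numbered 3 reads HA-CEBPA KI. These 4 knock-in sets shared a catalogue number for the antibody. The other 8 H3K27ac libraries came from TXNIP KO and TXNIP WT mice, 2 at RT and 2 in cold for each genotype. Ages, sexes, strains, and whether replicates were separate animals are not given in the labels, so p-values measure the spread between libraries, which may be technical.

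Insulin and IGF1 bind receptor tyrosine kinases, which phosphorylate the IRS adaptors. These recruit phosphoinositide 3-kinase, whose lipid product activates the AKT kinases, and AKT in turn keeps FOXO1 out of the nucleus. In brown fat this chain drives glucose uptake and lipid synthesis and is needed for the tissue to form. PPARG and the C/EBP factors run the adipocyte gene programme, PPARA and ERR1 act on genes of fat oxidation and mitochondria, and PGC1A is a cold-induced coactivator without DNA binding of its own.

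The value for a locus was its covered length, that is the kb of the locus lying under peaks of a list. List length set much of this value. PPARG lists held 38798 to 47087 peaks at RT and 33281 to 39064 in cold, and PPARA lists 23603 to 26404 at RT and 7324 to 11115 in cold. The WT cohort H3K27ac lists covered 60.4 to 70.3 Mb at RT and 56.6 to 66.9 Mb in cold. TXNIP KO lists covered 73.2 to 87.6 Mb at RT and 102 to 108 Mb in cold, and TXNIP WT lists 80.3 to 88.6 Mb and 88.0 to 96.9 Mb. Tests therefore ran on covered length scaled to the same total, as log2(scaled bp + 500), and understate changes of thinly covered loci. Read depth was not in the files. A peak is a call past a threshold, so a missing peak does not show an absent factor. In bulk tissue, fewer cells of a type and less signal per cell cannot be told apart.

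Every member carried PPARG, CEBPA, CEBPB and H3K27ac peaks in every list of those targets. The share of all loci with a peak was between 43.2% and 69.8% in single lists, and was not taken over all lists together. PGC1A was sparser, with peaks at 6 of the 10 members in each list against 10.1% to 12.8% of all loci. These shares were not matched for locus length, which was 41.1 to 301 kb for the members. Counted over the 35 lists, Igf1r, Irs1, Irs2, Akt1 and Akt2 held a peak in 35, Insr in 34, Pik3r1 in 33, Pappa in 31, Foxo1 in 30 and Pik3ca in 29. Peaks took the largest shares of Irs2, Akt2 and Akt1 among the 10 for PPARG at RT, at 15.5%, 15.3% and 12.3% of the locus, against a median of 1.62% over all loci. They took 1.69% of Igf1r and 1.00% of Pappa, whose loci are long (301 kb and 253 kb).

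**Figure D1:**
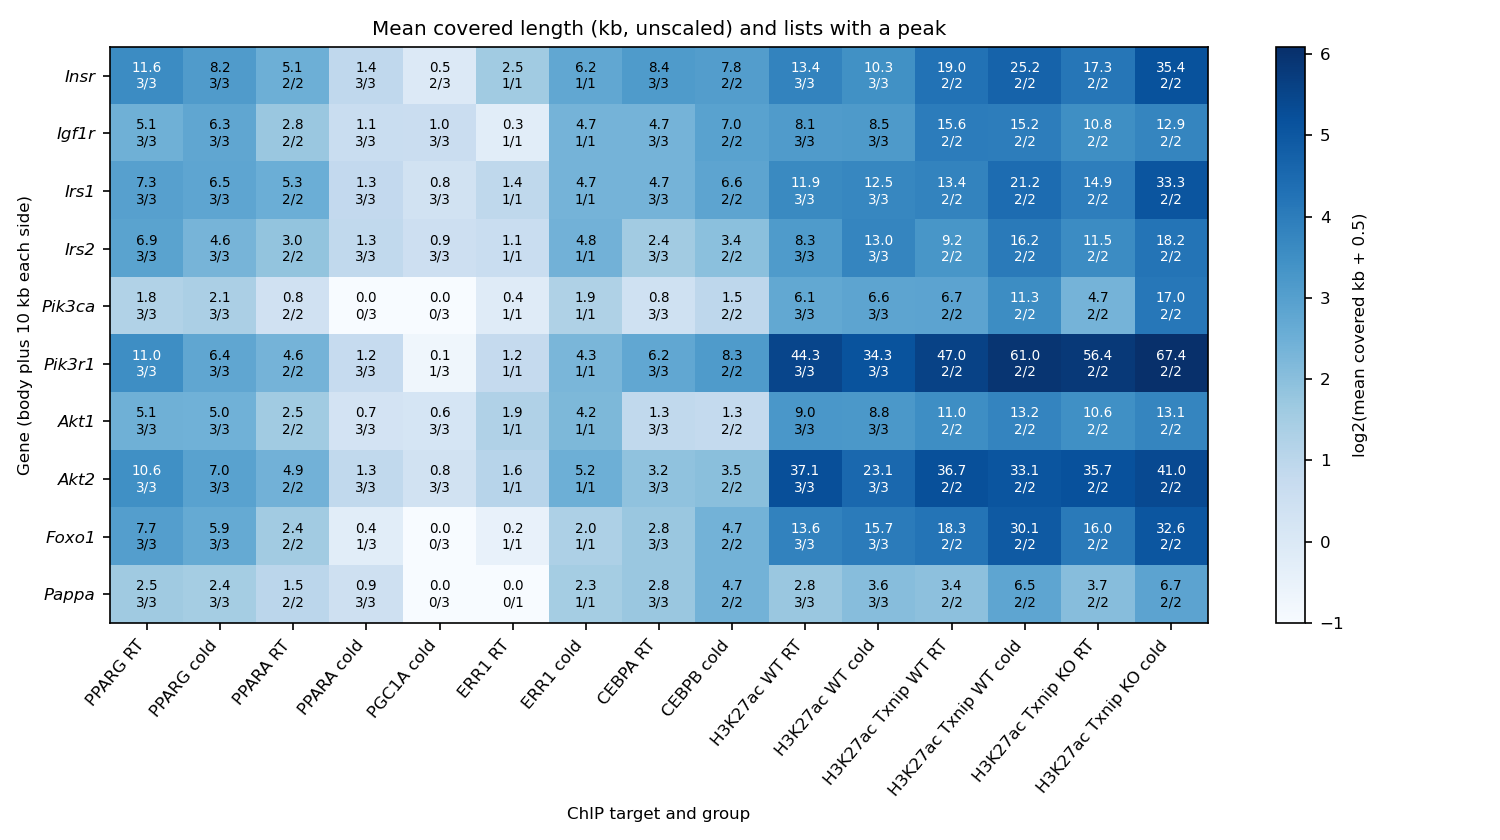
Mean covered length in kb (upper number, unscaled) and the number of lists with a peak (lower number) for the 10 genes in each of the 15 groups, with darker blue for longer coverage on a log2 scale. PPARG, CEBPA, CEBPB and H3K27ac columns are filled for every gene, while Pik3ca, Foxo1 and Pappa are empty under PGC1A.

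RefSeq promoter windows on GRCm38 (250 bases before to 50 after a start site) were listed for 8 of the 10 genes, 13 windows in all. H3K27ac peaks overlapped 12 of the 13 in all 14 lists, and the window inside Pik3r1 at chr13:101692581-101692880 in 12 of 14. PGC1A peaks overlapped none. The Irs1 window stood apart in holding PPARG, PPARA, CEBPA, CEBPB and ERR1 peaks in every list of those targets. The Irs2 window held PPARG in 6 of 6, CEBPA in 3 of 3 and CEBPB in 2 of 2. The Igf1r window held PPARG in 6 of 6 and CEBPA in 2 of 3. The outer Akt1 window held PPARG in 1 of 3 RT and 3 of 3 cold lists, and an inner Akt2 window in 3 of 3 RT and 0 of 3 cold lists. These 5 are printed 5′ to 3′ on the gene's strand. Irs1 is the most widely bound window, Irs2 and Igf1r belong to the genes with 2 PGC1A sites in all 3 lists each, and the Akt1 and Akt2 windows held PPARG peaks that differed by temperature. Capitals mark matches to the nuclear receptor core AGGTCA, the ERR form AAGGTCA (which contains it), the C/EBP form TTGCNNAA, the FOXO form GTAAACA and the cAMP response element TGACGTCA, each searched on both strands.
Irs1, chr1:82291390-82291689, minus strand: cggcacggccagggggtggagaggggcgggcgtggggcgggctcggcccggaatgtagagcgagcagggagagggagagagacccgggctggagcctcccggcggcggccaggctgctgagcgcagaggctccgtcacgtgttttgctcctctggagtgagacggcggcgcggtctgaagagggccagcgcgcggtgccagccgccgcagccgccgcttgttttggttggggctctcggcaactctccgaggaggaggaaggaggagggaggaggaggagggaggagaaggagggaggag
Irs2, chr8:11008880-11009179, minus strand: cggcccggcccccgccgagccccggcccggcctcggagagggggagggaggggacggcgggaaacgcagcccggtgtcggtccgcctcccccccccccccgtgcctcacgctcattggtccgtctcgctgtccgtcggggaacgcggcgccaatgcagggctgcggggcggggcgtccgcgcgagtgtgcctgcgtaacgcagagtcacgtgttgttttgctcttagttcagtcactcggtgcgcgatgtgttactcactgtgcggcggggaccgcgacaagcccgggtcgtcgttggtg
Igf1r, chr7:67952007-67952306, plus strand: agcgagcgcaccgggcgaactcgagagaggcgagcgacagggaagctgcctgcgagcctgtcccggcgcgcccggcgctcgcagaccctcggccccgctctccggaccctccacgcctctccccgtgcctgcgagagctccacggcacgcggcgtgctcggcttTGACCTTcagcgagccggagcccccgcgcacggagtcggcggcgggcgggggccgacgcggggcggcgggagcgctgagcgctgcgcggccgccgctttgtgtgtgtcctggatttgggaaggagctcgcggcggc
Akt1, chr12:112674835-112675134, minus strand: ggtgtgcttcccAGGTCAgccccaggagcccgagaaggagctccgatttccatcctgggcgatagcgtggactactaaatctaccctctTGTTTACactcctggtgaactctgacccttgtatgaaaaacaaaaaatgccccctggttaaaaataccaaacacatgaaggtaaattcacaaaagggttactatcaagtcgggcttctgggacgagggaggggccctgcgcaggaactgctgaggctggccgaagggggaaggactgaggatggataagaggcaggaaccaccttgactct
Akt2, chr7:27607086-27607385, plus strand: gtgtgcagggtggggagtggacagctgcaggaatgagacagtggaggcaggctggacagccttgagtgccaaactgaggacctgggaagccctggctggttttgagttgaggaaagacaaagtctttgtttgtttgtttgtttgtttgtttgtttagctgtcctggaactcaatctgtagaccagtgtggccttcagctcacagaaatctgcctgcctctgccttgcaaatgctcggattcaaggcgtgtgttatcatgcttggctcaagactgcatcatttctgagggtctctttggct
The Igf1r window held AAGGTCA, read on the opposite strand, 86 bases before the start site. The Akt1 window held AGGTCA 238 bases and GTAAACA, on the opposite strand, 161 bases before it. No form was matched in the other 11 windows, Irs1 and Irs2 included. Of all 32851 listed windows, 16.3% held AGGTCA, 4.72% AAGGTCA, 10.8% TTGCNNAA, 3.65% GTAAACA and 1.79% TGACGTCA. The Irs1 and Irs2 windows are rich in G and C (71.3% and 72.0%, against a median of 52.7% over all windows).

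After 4 h of cold, the members gave calls in each of 5 comparisons. A call was an adjusted p under 0.05 in limma, with Benjamini-Hochberg adjustment over all loci tested, and all 10 members were tested in each comparison. For PPARG 1 of 10 was called, Pik3r1, lower (background 10.2% of 14105 loci, 5.04% higher and 5.13% lower). For PPARA 1 of 10 was called, Pappa, higher (35.3% of 10231 loci, 4.21% higher and 31.1% lower). For H3K27ac in the WT cohort Irs2 was called higher and Akt2 lower (11.9% of 15163 loci, 5.39% and 6.55%). In TXNIP WT mice Foxo1 and Pappa were called higher (6.92%, of which 4.54% higher and 2.39% lower). In TXNIP KO mice Irs1, Pik3ca and Foxo1 were called higher (14.2%, of which 7.73% higher and 6.49% lower). The PPARA count lies below its share, and the H3K27ac count of each cohort lies above its share. With 10 members nothing particular to them is read from these counts. The median log2 change of the members lay beside that of all loci at 0.04 and 0.03 for PPARG, −0.10 and −0.44 for PPARA, 0.16 and 0.03 for the WT cohort, 0.37 and 0.01 for TXNIP WT, and 0.33 and −0.03 for TXNIP KO. Without scaling, the median of all loci moved by −0.25, −0.65, −0.06, 0.11 and 0.33 in the same order, and the share of calls that were higher went from 49.6% to 10.3%, 11.9% to 0.117%, 45.2% to 18.2%, 65.5% to 83.2% and 54.4% to 97.1%.

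**Figure D2:**
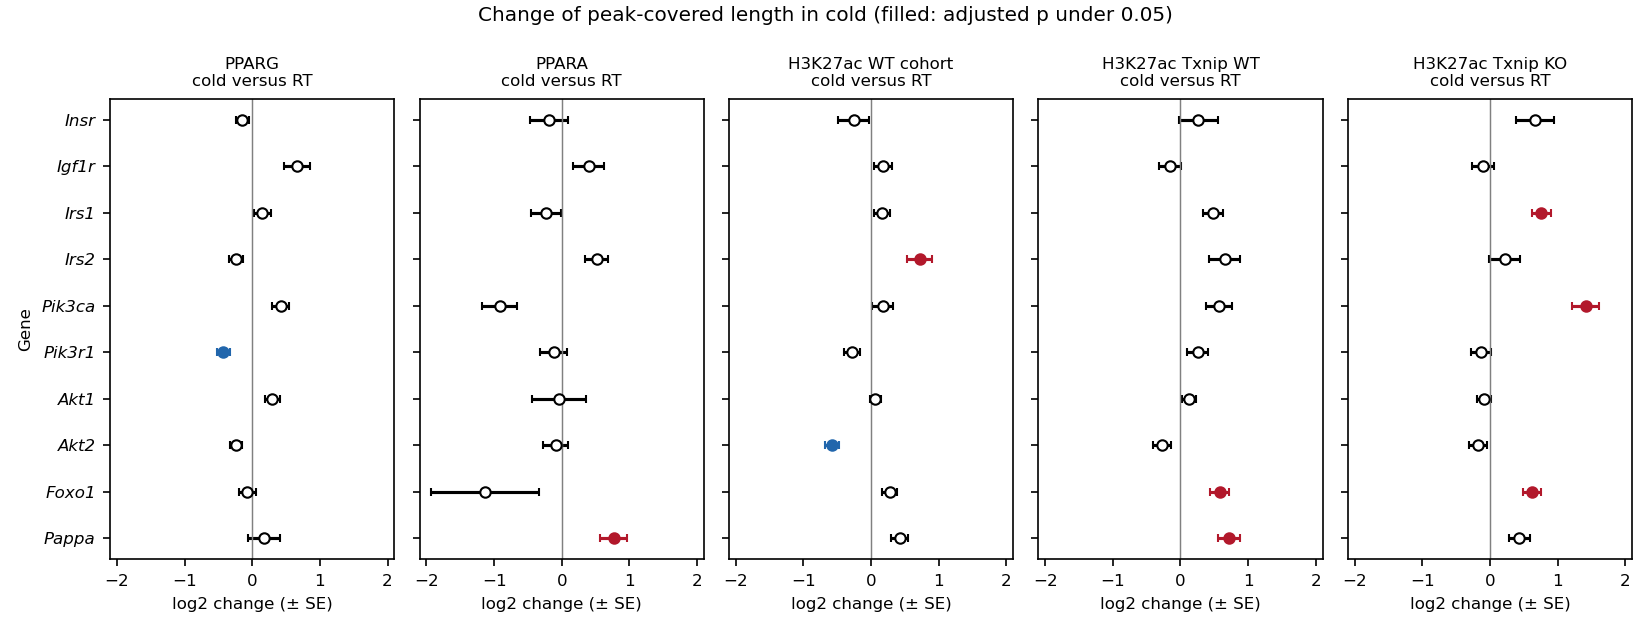
Log2 change of scaled covered length, cold minus RT, with its standard error (horizontal axis) for the 10 genes (vertical axis) in the PPARG, PPARA and 3 H3K27ac comparisons. Filled red points were called higher and filled blue points lower, and open points were not called, such as Igf1r under PPARG at 0.66.

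The IGF1 receptor gene Igf1r held 2 of the 3 member regions that had H3K27ac peaks in the cold lists alone across all cohorts. It encodes the tyrosine kinase that binds IGF1, and its body spans chr7:67952257-68233668. The 2 regions, 128 kb and 145 kb inside it, had an H3K27ac peak in all 7 cold lists and in none of the 7 RT lists, over the WT cohort and both TXNIP genotypes. The nearer one, chr7:68080057-68081339, had deposited fold enrichments of 7.19, 2.96 and 5.31 in the WT cohort, 7.97 and 10.2 in TXNIP WT, and 10.4 and 9.61 in TXNIP KO. The farther one, chr7:68096632-68098077, had 4.12, 5.21 and 5.31, then 6.72 and 7.33, then 7.98 and 7.22. All fold enrichments quoted here are the authors' values per peak. Of 67543 H3K27ac sites merged over the 14 lists, 68 (0.101%) had this all-cold, no-RT pattern and 25 the opposite, so that the members held 3 of the 68, with the third in Pappa. With stricter peaks (−log10 q of at least 5) the sites, merged anew, gave 50 with the pattern and 31 with the opposite. With lists cut to equal length they gave 42 and 39. In both cases the farther Igf1r region and the Pappa region were among those with the all-cold pattern and the nearer Igf1r region was not.

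Both Igf1r regions were also the 2 places in this gene where PGC1A was called, in 3 of 3 cold lists. The PGC1A sites were chr7:68080383-68081010 (fold 5.95 to 11.1) and chr7:68097013-68097587 (fold 6.92 to 11.7). Of the 68 all-cold H3K27ac sites, 10 (14.7%) overlapped PGC1A sites found in at least 2 of 3 lists, as did 3.26% of all 67543. The 10 include both Igf1r regions. PGC1A was mapped in cold alone and the 67543 include sites with no cold peak, so the shares are not matched. The factors were not restricted to cold at the nearer site, where PPARG, PPARA and CEBPA were called in every RT list (fold 5.72 to 7.62, 10.4 to 12.2 and 7.38 to 11.3). CEBPB was called there in both cold lists, and ERR1 at 6.19 in the RT and 30.7 in the cold list. At the farther site PPARG was called in 2 of 3 RT lists (4.35 to 4.48) and 3 of 3 cold lists (6.60 to 12.1), and ERR1 only in its cold list (33.3). The ERR1 cold list held 45811 peaks against 16021 at RT, with 1 library each, so this difference has no replicate check. Over the whole locus PPARG covered 5.26, 6.95 and 3.04 kb at RT and 5.72, 7.06 and 6.15 kb in cold, and the RT and cold ranges overlapped, though not after scaling. The scaled log2 change was 0.66 ± 0.19 (SE) and missed the threshold (adjusted p = 0.0601). It passed with equal list length (log2 0.65, adjusted p = 0.0397) and without RT replicate 2 (log2 0.81, adjusted p = 0.0476). PPARA coverage of Igf1r was called higher with stricter peaks (log2 1.08, adjusted p = 0.0477) and with equal list length (log2 0.93, adjusted p = 0.0496), and lower without scaling (log2 −1.05, adjusted p = 0.0425). In the fit reported here it was not called. H3K27ac over the whole locus was not called in any cohort (log2 0.18, −0.15 and −0.10 for WT, TXNIP WT and TXNIP KO).

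**Figure D3:**
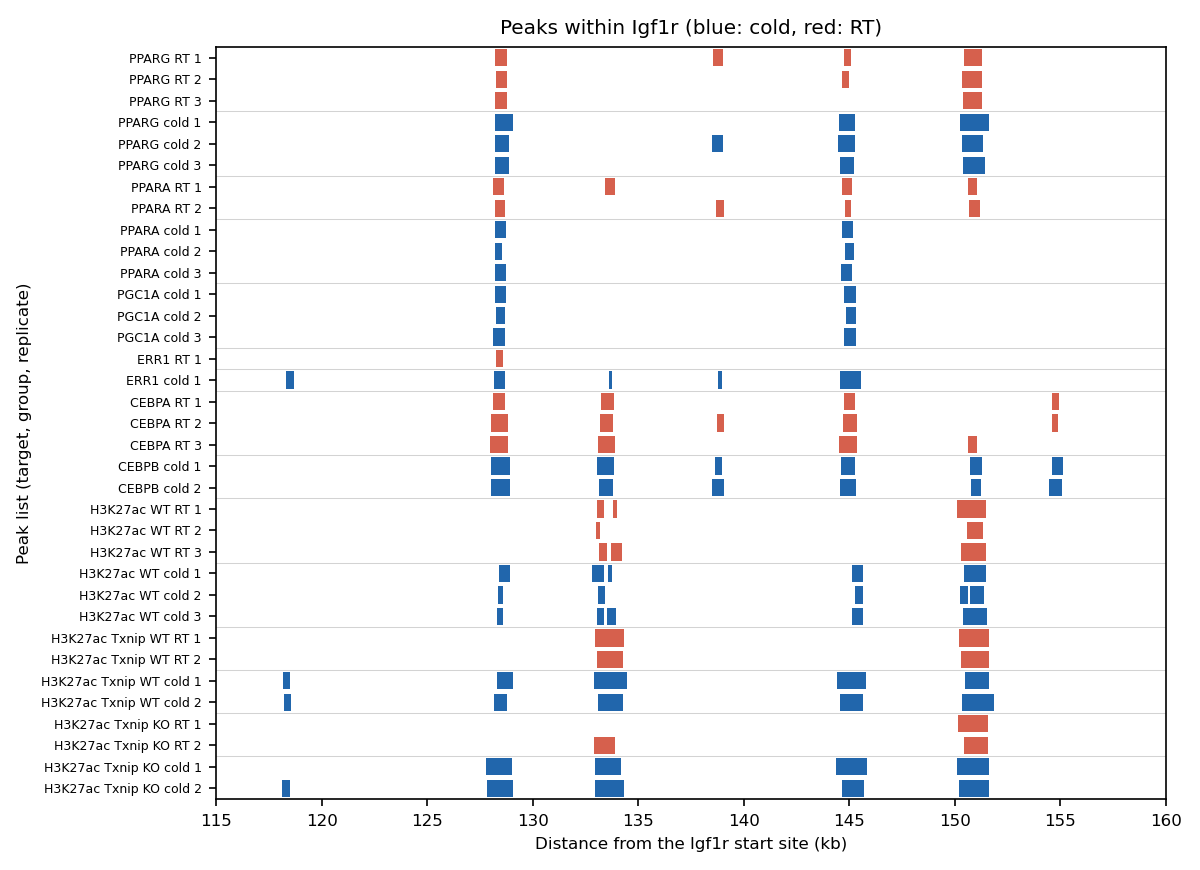
Peaks of all 35 lists inside Igf1r, by distance in kb from its start site (horizontal axis), 1 row per list, blue for cold and red for RT. Near 128 kb and 145 kb the 7 cold H3K27ac rows and the 3 PGC1A rows have a peak and the 7 RT H3K27ac rows have none, whereas near 151 kb H3K27ac is present at both temperatures.

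The insulin receptor gene Insr (chr8:3150922-3279649) carried strong binding at both temperatures with no call. Its strongest PPARG site, chr8:3277519-3280537, had fold 31.5 to 35.4 at RT and 18.8 to 22.4 in cold, so the ranges did not overlap. PPARG covered 11.8, 13.0 and 9.86 kb of the locus at RT and 7.83, 8.77 and 7.88 kb in cold, with every cold list below every RT list. After scaling the log2 change was −0.15 ± 0.09 (adjusted p = 0.354). PGC1A was called in 2 of 3 lists at chr8:3288617-3289020 (fold 8.14 and 8.21), beyond the gene body. CEBPA (18.7 to 25.0) and CEBPB (30.4 and 47.5) were strong at the same place. H3K27ac covered 12.9 and 21.7 kb in TXNIP KO mice at RT and 37.7 and 33.0 kb in cold, and the log2 change of 0.67 ± 0.28 was not called (adjusted p = 0.128). Without scaling it was (log2 1.05, adjusted p = 0.0396).

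Irs2, an adaptor that couples the insulin receptor to phosphoinositide 3-kinase, gained H3K27ac coverage in cold in the WT cohort. It is on chr8:10984681-11008929. The RT lists covered 9.12, 9.20 and 6.61 kb and the cold lists 13.3, 12.0 and 13.7 kb, without overlap. The log2 change was 0.72 ± 0.19 (limma, adjusted p = 0.0280). The call was lost without scaling (adjusted p = 0.0733). It was also lost without any of 5 libraries: cold replicate 1 (0.0603), 2 (0.0892) or 3 (0.0721), or RT replicate 1 (0.0783) or 3 (0.0740). The peak over the start of the gene reached 2.74, 3.18 and 2.55 kb into it at RT and 7.89, 7.01 and 8.48 kb in cold, a measure chosen after its values were seen. In TXNIP WT mice it reached 3.04 and 3.10 kb at RT and 9.51 and 7.87 kb in cold. In TXNIP KO mice it reached 6.26 and 6.40 kb at RT and 9.72 and 6.72 kb in cold. Covered length in TXNIP WT was 8.45 and 9.87 kb at RT and 17.95 and 14.4 kb in cold (log2 0.66 ± 0.23, adjusted p = 0.116). In TXNIP KO it was 10.6 and 12.4 kb, then 22.9 and 13.5 kb (log2 0.22 ± 0.23, adjusted p = 0.533). The difference between the genotypes in their cold response was −0.44 ± 0.32 (adjusted p = 0.660). Covered length in KO against WT at RT was not called either (log2 0.38 ± 0.23, adjusted p = 0.763).

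PGC1A was called upstream of Irs2 in all 3 lists at 2 sites, 0.992 kb and 4.40 kb before the start. The nearer, chr8:11009668-11010176, had fold 9.54 to 11.2, and the farther, chr8:11013066-11013591, had 8.93 to 14.1. ERR1 was called at both at RT (12.5 and 24.0) and in cold (25.5 and 49.0). PPARA was called at the nearer in 5 of 5 lists and at the farther in none. Both were overlapped by H3K27ac peaks in every one of the 14 lists. The strongest PPARG site of this gene lay elsewhere, at chr8:10993300-10994058, 15.3 kb past the start (fold 9.99 to 15.5 at RT and 15.5 to 16.3 in cold), where H3K27ac was called in 1 of 14 lists. A weaker PPARG site at chr8:11006910-11007470 was called in 3 of 3 RT lists (3.58 to 5.21) and no cold list. PPARG coverage of the locus was 6.94, 7.76 and 5.90 kb at RT and 3.67, 4.54 and 5.50 kb in cold (log2 −0.24 ± 0.11, adjusted p = 0.201).

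Irs1, the adaptor more closely tied to IGF1 and insulin action in fat and muscle, is on chr1:82233105-82291439. Its strongest PPARG site covered its promoter (chr1:82289774-82292350), with fold 18.7 to 23.8 at RT and 10.9 to 13.5 in cold. A PGC1A site lay 9.61 kb from the start, chr1:82281549-82282114, in 3 of 3 lists at a low fold of 3.89 to 4.55. PPARG was called there in 1 of 3 RT and 3 of 3 cold lists. H3K27ac covered 11.8, 12.0 and 12.0 kb at RT and 13.4, 11.6 and 12.7 kb in cold in the WT cohort (log2 0.16 ± 0.12, not called). In TXNIP KO mice it covered 12.6 and 17.2 kb at RT and 36.7 and 29.9 kb in cold, without overlap. There the log2 change was 0.76 ± 0.14 (adjusted p = 0.00796). Leaving out KO cold replicate 1 or KO RT replicate 1 ended this call (adjusted p = 0.0605 and 0.0679). TXNIP WT lists went from 13.9 and 12.9 kb to 16.7 and 25.7 kb (log2 0.48 ± 0.14, adjusted p = 0.0690), and without WT cold replicate 1 this was called (log2 0.71, adjusted p = 0.0253).

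**Figure D4:**
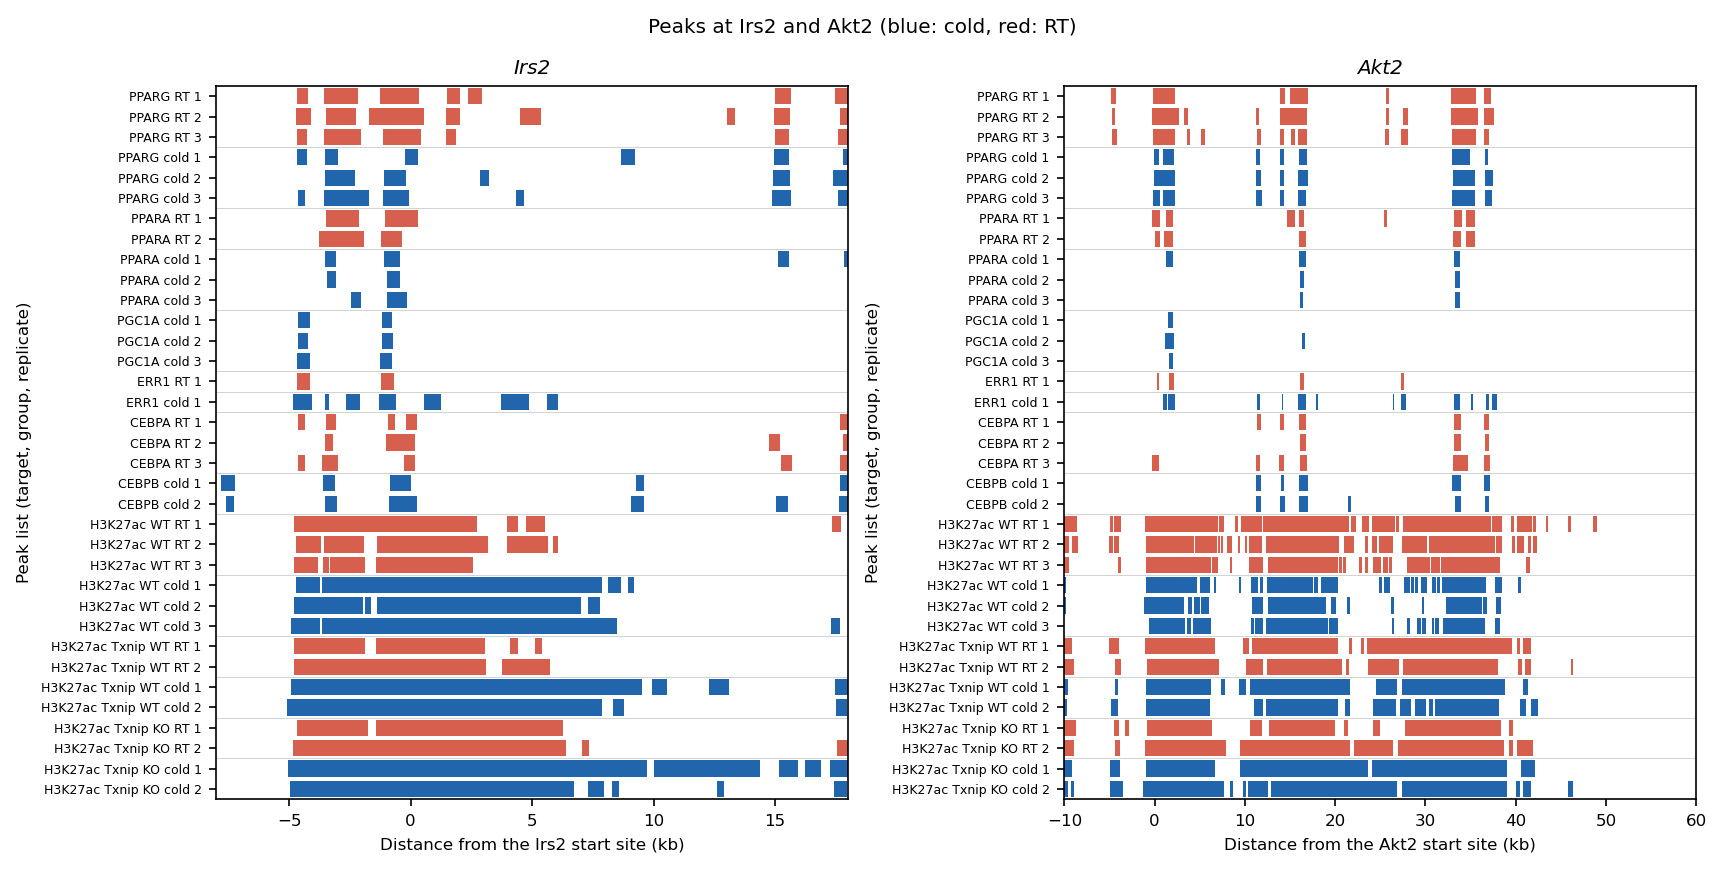
Peaks of all 35 lists around the Irs2 (left) and Akt2 (right) start sites, 1 row per list, with distance in kb on the horizontal axis, blue for cold and red for RT. The H3K27ac block over the Irs2 start reaches farther into the gene in the WT and TXNIP WT cold rows, and the Akt2 WT cohort cold rows cover less of the gene than the RT rows.

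The 2 phosphoinositide 3-kinase subunit genes among the members were called for different targets in different mice. These were PPARG in WT mice for Pik3r1 and H3K27ac in TXNIP KO mice for Pik3ca, so the 2 calls are not compared. Pik3r1, the gene of the regulatory subunit p85 alpha, lost PPARG coverage in cold. It is on chr13:101680761-101768217. PPARG covered 11.8, 11.1 and 10.0 kb at RT and 5.39, 6.87 and 6.82 kb in cold, and every cold list was below every RT list. The log2 change was −0.43 ± 0.09 (adjusted p = 0.0290). The call was lost with stricter peaks (log2 −0.17, adjusted p = 0.378) and with equal list length (log2 −0.19, adjusted p = 0.204). It was also lost without RT replicate 1 (adjusted p = 0.111) or 3 (0.0695), or without cold replicate 1 (0.0743), 2 (0.0691) or 3 (0.0640). PPARG sites at chr13:101738653-101739196 and chr13:101753585-101754152 were held by all 3 RT lists (4.13 to 5.38 and 4.31 to 6.28) and no cold list. PPARA was called at the same places in both RT lists and no cold list. H3K27ac remained called at the first of them in all 14 lists. The strongest PPARG site, chr13:101728002-101729539, was held at both temperatures (26.96 to 32.8 at RT and 22.3 to 31.3 in cold). Pik3r1 had the longest H3K27ac coverage of the 10 genes, 44.3 ± 6.30 kb (SD, n = 3) at RT and 34.3 ± 6.30 kb in cold in the WT cohort, which was not called (log2 −0.28 ± 0.12). In TXNIP WT and TXNIP KO mice its log2 change was 0.25 ± 0.15 and −0.13 ± 0.15, neither called.

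Pik3ca, the gene of the catalytic subunit p110 alpha, gained H3K27ac coverage in cold in TXNIP KO mice. It is on chr3:32397065-32466112. The lists covered 3.62 and 5.71 kb at RT and 17.3 and 16.8 kb in cold. The log2 change of 1.42 ± 0.19 (adjusted p = 0.00206) was called under all 12 alternatives, with adjusted p from 0.00079 to 0.0222. TXNIP WT lists covered 6.99 and 6.504 kb at RT and 12.1 and 10.4 kb in cold, and the log2 change of 0.57 ± 0.19 was not called (adjusted p = 0.109). It was called higher with stricter peaks (log2 0.62, adjusted p = 0.0411) and with equal list length (log2 0.60, adjusted p = 0.0210). The WT cohort lists overlapped between temperatures, at 6.45, 6.08 and 5.76 kb and 4.84, 6.99 and 8.001 kb. The difference between the genotypes in their cold response was 0.85 ± 0.27 on the log2 scale (adjusted p = 0.408). At Pik3ca 7 H3K27ac sites were held by both TXNIP KO cold lists and neither KO RT list, out of 14. PPARA covered 0.388 and 1.25 kb in the RT lists and was called in none of the 3 cold lists (log2 −0.92 ± 0.26, adjusted p = 0.0538). PGC1A was called in no list. The PPARG peak over the promoter, chr3:32396192-32397882, was held in all 6 lists (10.8 to 16.5). PPARG coverage of the Pik3ca locus was not called (log2 0.42 ± 0.13, adjusted p = 0.0747). It was called higher with peaks in no other gene body.

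Akt2, the AKT isoform on which insulin-driven glucose uptake in fat depends, lost H3K27ac coverage in cold in the WT cohort. It is on chr7:27591552-27640826. The RT lists covered 41.9, 37.2 and 32.1 kb and the cold lists 25.8, 20.7 and 22.9 kb, without overlap. The log2 change was −0.58 ± 0.11 (adjusted p = 0.00661) and was called under all 14 alternatives (adjusted p from 0.00216 to 0.0340). The TXNIP cohorts gave smaller values, −0.27 ± 0.13 in WT and −0.17 ± 0.13 in KO, neither called, and whether they differ from the WT cohort was not tested. The H3K27ac sites chr7:27587061-27587830, 4.11 kb upstream, and chr7:27614187-27615246, within the gene, were held by all 3 WT cohort RT lists and no cold list. The upstream one was held in all 8 TXNIP lists. It overlapped a PPARG site, chr7:27586725-27587426, that was likewise held by 3 of 3 RT lists (6.08 to 6.55) and no cold list. A further PPARG site at chr7:27617088-27617534 was called at RT alone (4.76 to 5.50).

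Akt2 also held the strongest PPARG site of the 10 genes. That site, chr7:27624391-27627344, had fold 65.0 to 71.2 at RT and 49.96 to 71.8 in cold, with PPARA, CEBPA and CEBPB in every list. PPARG coverage was 9.31, 12.2 and 10.4 kb at RT and 5.92, 7.70 and 7.51 kb in cold, without overlap (log2 −0.24 ± 0.09, adjusted p = 0.135 after scaling). PGC1A was called in 3 of 3 lists 1.68 kb past the start (chr7:27592746-27593718, fold 6.70 to 7.27). The printed Akt2 window belongs to an inner start site. It was overlapped by PPARG in the 3 RT lists and no cold list, and by H3K27ac in all 14 lists.

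Akt1, the AKT isoform more closely tied to growth, is on chr12:112653821-112674884 and was called in no comparison. H3K27ac covered 8.96 ± 0.583 kb at RT and 8.81 ± 0.776 kb in cold in the WT cohort (SD, n = 3 each). PPARG covered 5.07 ± 0.911 kb at RT and 4.97 ± 0.304 kb in cold (n = 3 each). After scaling, every cold list lay above every RT list (log2 0.30 ± 0.12, adjusted p = 0.150). PGC1A was called in 3 of 3 lists 3.13 kb past the start (chr12:112670911-112671382, fold 5.27 to 7.18), together with PPARG and PPARA in every list and ERR1 in both. The strongest PPARG site, chr12:112643476-112645548, lay beyond the far end of Akt1 in the body of the neighbouring gene Siva1, and Zbtb42 overlaps the same locus.

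Foxo1, the forkhead factor that AKT keeps out of the nucleus, gained H3K27ac coverage in cold in both TXNIP genotypes. It is on chr3:52268337-52350109. TXNIP WT lists covered 18.9 and 17.7 kb at RT and 30.8 and 29.5 kb in cold (log2 0.58 ± 0.14, adjusted p = 0.0279). TXNIP KO lists covered 14.6 and 17.4 kb, then 33.2 and 32.1 kb (log2 0.63 ± 0.14, adjusted p = 0.0138). The WT cohort covered 15.1, 12.0 and 13.8 kb at RT and 18.6, 11.8 and 16.8 kb in cold, which overlapped (log2 0.27 ± 0.11, adjusted p = 0.140, and 0.0280 without cold replicate 2). The call in TXNIP WT was lost with equal list length (adjusted p = 0.0558) and without WT cold replicate 1 (0.163) or 2 (0.0545) or WT RT replicate 1 (0.131) or 2 (0.112). In TXNIP KO it was lost with stricter peaks (0.0970), with equal list length (0.280, log2 0.27) and without KO cold replicate 1 (0.0623) or KO RT replicate 1 (0.0767). PGC1A was not called at Foxo1, and PPARA was called in both RT lists and 1 of 3 cold lists. PPARG sat over its promoter in all 6 lists (chr3:52267598-52270853, fold 17.2 to 20.6 at RT and 14.9 to 17.9 in cold).

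Pappa, the gene of a secreted protease that cuts IGF-binding proteins and frees IGF1, held an H3K27ac region that was called in all 7 cold lists and no RT list. It is on chr4:65124174-65357509, and the region is chr4:65134413-65136082. Fold was 6.35, 5.04 and 5.25 in the WT cohort, 5.31 and 4.37 in TXNIP WT, and 10.4 and 4.89 in TXNIP KO. CEBPA (3 of 3 RT lists, 5.37 to 7.01) and CEBPB (2 of 2 cold lists, 15.3 and 18.3) were called there. ERR1 was called in its cold list (8.29), PPARG in 1 of 6 lists, and PPARA and PGC1A in none. H3K27ac covered 3.56 and 3.18 kb of the locus in TXNIP WT at RT and 7.37 and 5.59 kb in cold (log2 0.71 ± 0.16, adjusted p = 0.0231). That call was lost with stricter peaks (0.263), with equal list length (0.246) and without WT cold replicate 1 (0.155) or WT RT replicate 1 (0.103) or 2 (0.114). In TXNIP KO the lists covered 3.10 and 4.26 kb, then 7.28 and 6.15 kb (log2 0.44 ± 0.16, adjusted p = 0.0867, and 0.00790 without scaling). In the WT cohort they covered 3.28, 2.67 and 2.47 kb, then 3.32, 3.80 and 3.79 kb (log2 0.42 ± 0.13, adjusted p = 0.0597).

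**Figure D5:**
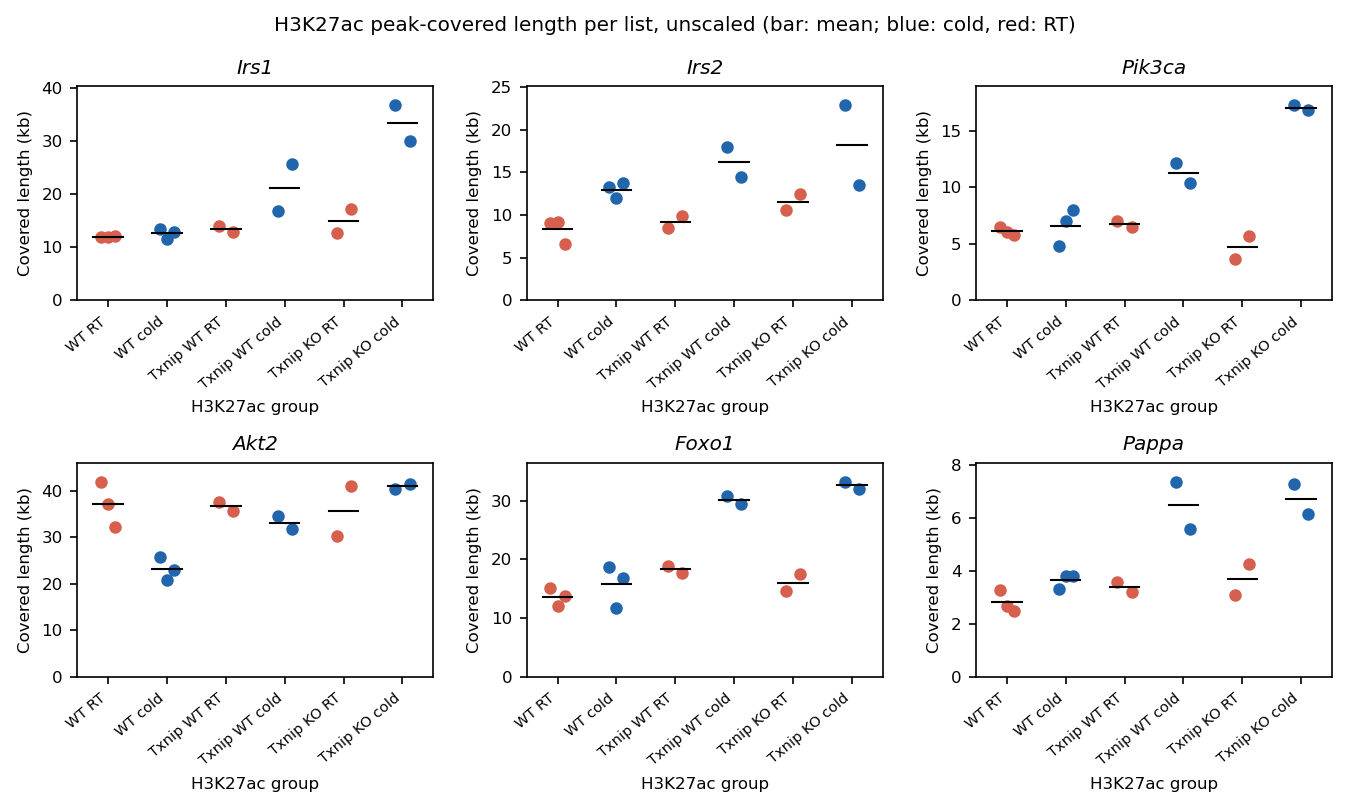
H3K27ac covered length (kb, unscaled, vertical axis from 0) of the 6 genes called in an H3K27ac comparison, 1 point per list and a bar at the group mean, blue for cold and red for RT. Pik3ca in TXNIP KO mice lies at 3.62 and 5.71 kb at RT and at 17.3 and 16.8 kb in cold, and Akt2 in the WT cohort at 32.1 to 41.9 kb at RT and 20.7 to 25.8 kb in cold.

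The PPARA call on Pappa depends on the scaling. Its covered length was 1.80 and 1.23 kb at RT and 1.06, 0.680 and 0.859 kb in cold, lower in every cold list than in either RT list. After scaling to list length the log2 change was 0.77 ± 0.20 (adjusted p = 0.0385), without scaling −0.55 (adjusted p = 0.0835), and with equal list length 0.06 (adjusted p = 0.881). Leaving out cold replicate 2 or 3, or RT replicate 1 or 2, ended the call (adjusted p = 0.0740, 0.0711, 0.934 and 1.00). The PPARA site there, within chr4:65125523-65127986, was held in all 5 lists. At the members PPARA held 66 sites, of which 17 were held by both RT lists and no cold list (25.8%, against 24.1% of all PPARA sites) and none by the cold lists alone. Of these 17, 5 lay in Pik3r1, 3 in Insr, 2 each in Irs1, Akt1 and Akt2, and 1 each in Igf1r, Pik3ca and Foxo1.

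Site by site, PPARG held 109 sites at the members, of which 43 were in all 6 lists (39.4%, against 37.9% of all PPARG sites). No member site was held by the 3 cold lists alone (1.75% of all sites were). The 5 held by the RT lists alone, named above, were 4.59% of the member sites (5.27% of all). For H3K27ac the cold-alone sites at members were 3 of 152 in the WT cohort (1.97%, 1.14% of all sites), 21 of 122 in TXNIP WT (17.2%, 6.38% of all) and 30 of 138 in TXNIP KO (21.7%, 11.4% of all). In TXNIP WT 5 of the 21 lay in Igf1r, 4 in Foxo1 and 3 each in Irs1 and Pik3r1. In TXNIP KO 7 of the 30 lay in Pik3ca, 5 each in Irs1 and Foxo1 and 4 each in Insr and Pik3r1. Sites of 1 gene share its chromatin and are not replicates of each other. ERR1 was called in its cold list alone at 75 of 102 member sites (73.5%, 66.7% of all ERR1 sites), with 1 list per temperature.

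The comparison of TXNIP KO with TXNIP WT mice gave no called member. TXNIP is a protein that restrains glucose uptake. H3K27ac peaks covered the whole 3.90 kb Txnip gene body in all 14 lists, KO included, so the peak lists do not check the KO label, and the allele is not described in the labels. KO against WT at RT called 0 of 10 (0.0791% of all loci), with 3 at an unadjusted p under 0.05. In cold it called 0 of 10 (0.442% of loci), with 2 at an unadjusted p under 0.05, and the genotype by cold interaction 0 of 10 (0.033% of loci), with 1. All of these are limma calls. The background in cold rested on single libraries: 67 loci were called with all of them, 1 without KO cold replicate 1, 3 without WT cold replicate 1 and 504 (3.34%) without KO cold replicate 2. The largest KO against WT difference in cold was at Irs1 (log2 0.48 ± 0.14, adjusted p = 0.157), and it passed once WT cold replicate 2 was left out (log2 0.71, adjusted p = 0.0496). Igf1r coverage was 8.82 and 12.7 kb in KO and 17.2 and 13.9 kb in WT at RT, and 13.5 and 12.4 kb in KO and 15.2 and 15.2 kb in WT in cold. Neither difference was called (log2 −0.45 and −0.40, adjusted p = 0.449 and 0.277). In cold, both KO lists and no WT list held 5 sites at Pik3ca and 3 each at Irs1 and Pik3r1, which makes 11 of 138 member sites (7.97%, against 5.38% of all 63414 H3K27ac sites of these lists). The opposite pattern was seen at 1 member site, in Igf1r (0.72%, against 1.11% of all sites). At RT each pattern was seen at 2 of 88 member sites, the KO-alone ones in Pik3r1 and the WT-alone ones in Igf1r (2.27% each, against 1.26% and 2.90% of all sites).

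The rest of the pathway was read from 83 further genes, whose list was chosen with results of these data known. Under PPARG 3 of 74 tested were called higher and 2 lower, a smaller share than the 10.2% of all loci. Sgk1, a kinase related to AKT, rose (3.69 ± 0.0792 kb at RT and 6.81 ± 0.963 kb in cold, n = 3 each, log2 1.103 ± 0.107), as did Trib1, a pseudokinase (log2 0.49 ± 0.09). Grb10, an adaptor that inhibits both receptors, fell (log2 −1.13 ± 0.26), and so did Srebf1, the lipogenic factor that insulin induces (log2 −0.86 ± 0.10).

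Under PPARA 3 of 58 pathway genes were called higher and 8 lower, again a smaller share than the 35.3% of all loci. Among the higher were Trib1 (log2 0.93 ± 0.22) and the kinase gene Mtor (0.92 ± 0.16), and both covered less in cold before scaling (3.20 to 1.92 kb and 3.77 to 2.24 kb). Cbl, a ubiquitin ligase gene, went from 3.37 ± 0.122 kb (n = 2) to 0.113 ± 0.195 kb (n = 3), with a log2 change of −1.94 ± 0.44. Grb10 covered 1.03 kb at RT and had no peak in any cold list, so its log2 change depends on the pseudocount.

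For H3K27ac in the WT cohort 5 of 78 pathway genes were called higher and 7 lower, against 5.39% and 6.55% of all loci. Srebf1 fell most (28.2 ± 4.81 kb at RT and 11.9 ± 2.24 kb in cold, n = 3 each, log2 −1.12 ± 0.17), followed by G6pc, a gluconeogenic gene that FOXO1 induces in liver (−1.001 ± 0.118), and Igfals, whose protein carries IGFs in blood, was also called lower (−0.63 ± 0.12). The largest rises were at the MAP kinase kinase gene Map2k1 (0.54 ± 0.11), Sgk1 (0.47 ± 0.09), the binding protein gene Igfbp7 (0.47 ± 0.09) and Trib2 (0.39 ± 0.09).

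In TXNIP WT 7 of 78 were called higher and 2 lower (4.54% and 2.39% of all loci). In TXNIP KO 12 were called higher and 11 lower (7.73% and 6.49%), a larger share than that of all loci. The median log2 change of the list was 0.02 in TXNIP WT and −0.02 in TXNIP KO, beside 0.01 and −0.03 over all loci. Srebf1 was called lower in both (−0.97 ± 0.20 and −0.80 ± 0.20), and Rheb and Rptor of the mTOR branch higher in both (Rheb 0.94 ± 0.17 and 1.33 ± 0.17, Rptor 1.01 ± 0.20 and 1.58 ± 0.20). In TXNIP WT Foxo3 was also called higher (0.58 ± 0.11). So was Stc1, the gene of a secreted inhibitor of the Pappa protease, which had no peak at RT and covered 1.28 ± 0.6003 kb in cold (n = 2 each), while Igf2 covered 0.354 ± 0.0368 kb at RT and had no peak in cold. In TXNIP KO Enpp1, the gene of a membrane protein that inhibits the insulin receptor, had no peak at RT and covered 2.46 ± 1.29 kb in cold (n = 2 each). The phosphatase gene Ptpn11 rose there as well (4.04 ± 0.457 kb at RT and 13.8 ± 1.85 kb in cold, n = 2 each, log2 1.27 ± 0.19). Irs3 (−0.79 ± 0.10), the catalytic subunit gene Pik3cb (−0.72 ± 0.18) and the ligand gene Igf1 (−0.67 ± 0.18) were called lower in TXNIP KO. The KO against WT comparisons and the interaction called none of 78.

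Markers of other cell types moved with some of these comparisons. All 12 brown adipocyte markers, Ucp1 included, held PPARG peaks at both temperatures. Before scaling, their summed PPARG coverage was 129 to 153 kb at RT and 93.2 to 112 kb in cold. After scaling, 1 was called higher and 2 lower under PPARG. Their summed H3K27ac coverage was 305 to 369 kb at RT and 255 to 308 kb in cold in the WT cohort (2 called higher, 1 lower). It was 337 to 375 kb and 403 to 414 kb in TXNIP WT (2 higher, 0 lower), and 330 to 390 kb and 431 to 480 kb in TXNIP KO (3 higher, 2 lower). Of 11 endothelial markers tested under PPARG, 9 were called higher in cold and none lower (median log2 0.81), and their summed PPARG coverage was 37.8 to 46.2 kb at RT and 52.7 to 67.8 kb in cold. For H3K27ac 5 of 12 endothelial markers were called higher in the WT cohort (218 to 269 kb at RT, 275 to 308 kb in cold), 1 higher in TXNIP WT and 5 lower in TXNIP KO (297 to 338 kb at RT and 337 to 343 kb in cold before scaling). Summed H3K27ac coverage of 8 macrophage and lymphocyte markers was 16.4 to 21.9 kb in TXNIP KO at RT and 30.9 to 58.3 kb in cold, with 2 of 6 tested called higher. For 8 fibroblast and preadipocyte markers it was 30.7 to 43.3 kb and 57.7 to 62.4 kb, with none called. Under PPARG 2 of 5 tested fibroblast and preadipocyte markers were called higher and 0 lower (4.28 to 4.51 kb at RT and 5.73 to 6.91 kb in cold, summed). The T cell marker Cd3e had no peak in either TXNIP KO list at RT and had one in at least 1 of the 2 cold lists. The part of these shifts in the member results was not tested. PGC1A lists held no peak at 11 of 12 endothelial markers, and no peak at any of the 8 macrophage and lymphocyte or the 8 fibroblast and preadipocyte markers.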

How the data were processed

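ChIP-seq peaks in 35 BAT libraries were used, 1 deposited list per library with replicates not pooled. The submitters' processing notes name the build GRCm38.p6 and, with no role or order, MACS2 2.2.7.1, deepTools 3.4.3, BWA 0.7.17, Trim Galore 0.6.0 and SAMtools. No source used here gives settings or the control. Fixation was by formaldehyde alone for H3K27ac and by DSG and then formaldehyde for the other targets, per the labels' protocols. Each list gives the authors' fold enrichment per peak, −log10 of the p and q values, and a score, which was not used. Fold enrichment was used only to describe peaks, and −log10 q to filter them.

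Peaks were merged per list, and covered length was summed over each protein-coding gene body of the RefSeq table plus 10 kb on each side. Of the 21631 loci 76.3% overlapped another, so a peak could count for several genes. Covered length was scaled to the mean list total, and log2(bp + 500) entered 2-sided tests in R 4.3.3 by limma 3.58.1 with a trended prior and Benjamini-Hochberg adjustment at 0.05, in loci covered in at least as many lists as the smallest group holds. PPARG and PPARA had a fit each, and the 14 H3K27ac lists shared one. Every adjusted p in the text is from limma. Sites are peaks merged over the lists of a target, and lists shared a site at an overlap of 1 bp. Promoter sequences are RefSeq's, GRCm38. All members were named, and of the wider pathway up to 4 called genes per direction with the largest change and no overlap between groups, apart from a few that are not reported here. Sites named were those gained or lost (summarised by gene for PPARA and the TXNIP lists), the strongest PPARG site of each member, and PGC1A sites in at least 2 lists. The members, gene lists and tests were chosen with earlier results of these data known.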

Additional observations from a re-analysis of the deposited data

Results flagged for a closer look

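Akt1 was picked out because its H3K27ac groups moved in opposite directions in 2 cohorts without overlap after scaling. The log2 change of H3K27ac coverage in cold was 0.06 ± 0.08 in the WT cohort and −0.08 ± 0.10 in TXNIP KO mice, a difference of 0.148. Neither change was called by limma, and the difference itself was not tested.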

How the results depend on the processing

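Of 1046 values of members under alternatives, 982 kept their direction and side of the threshold or stayed uncalled, 24 became called, 37 lost a call and 3 reversed. The 3 were PPARA values without scaling: Igf1r −1.05, Irs2 −0.98 and Pappa −0.55. Most of the 982 were uncalled in the main fit and stayed so, and do not show how calls fared. Of the members called in the main fit, only Akt2 in the WT cohort and Pik3ca in TXNIP KO were called under every alternative. The number of members called for PPARG (1) was 0 with stricter peaks, 2 with peaks in no other gene body, and 0 to 2 with a library left out. For PPARA (1) it was 8 without scaling, 2 with stricter peaks, gene bodies alone or a pseudocount of 100 bp, 0 with no filter on thinly covered loci (Pappa adjusted p = 0.0678), and 0 to 2 with a library left out. For the WT cohort (2) it was 1 without scaling and 1 to 2 with a library left out. For TXNIP WT (2) it was 1 with equal list length and 0 to 1 with a library left out. For TXNIP KO (3) it was 5 without scaling and 1 to 3 with a library left out. For KO against WT in cold (0) it was 0 to 1 with a library left out.

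Sites held by cold lists alone numbered 1 for PPARG and 1 for PPARA with equal list length, 13 in TXNIP WT with stricter peaks and 13 in TXNIP KO with equal list length. With a library left out they were 0 to 2 for PPARG, 3 to 5 in the WT cohort, 22 to 41 in TXNIP WT and 31 to 65 in TXNIP KO. Sites held by RT lists alone numbered 3 for PPARG, 2 for PPARA and 2 in TXNIP KO with equal list length, 8 for PPARA, 1 in the WT cohort and 0 in TXNIP KO with stricter peaks, and 1 in the WT cohort with gene bodies alone. With a library left out they were 18 to 31 for PPARA, 2 to 8 in the WT cohort, 4 to 11 in TXNIP WT and 1 to 3 in TXNIP KO. The cause of these shifts was not tested, apart from the fewer peaks or lists that each setting leaves.

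Loci called moved too: PPARG from 1434 to 529 to 866 with a library left out and to 937 with the block below. PPARA went from 3614 to 6859 without scaling, 367 with equal list length, and 15 and 33 without RT replicate 1 or 2. TXNIP KO went from 2156 to 4424 without scaling, to 1384 with equal list length, and to 725 and 524 without cold or RT replicate 1. The WT cohort went from 1811 to 1013 without scaling and, with a library left out, to between 851 and 2066, and TXNIP WT from 1050 to between 292 and 528. For KO against WT 12 loci at RT became 3 to 15 and the 5 of the interaction 0 to 131 with a library left out. With the replicate number as a block, the number of members called was unchanged in the cold comparisons (1, 1, 2, 2 and 3), but PPARG then called Igf1r higher (adjusted p = 0.0379) and not Pik3r1 (0.0557), and PPARA called Pik3ca lower (0.00465) and not Pappa (0.118). The numbers were not taken as pairs in the main fit. Deviations of same-numbered lists correlated at −0.05 to 0.05 for PPARG, −0.05 to −0.02 for PPARA and 0.08 to 0.12 in the WT cohort. For TXNIP WT and TXNIP KO the values were −0.15 and −0.22. With 2 lists per group, crossed numbers must give the same values with the opposite sign (0.15 and 0.22), so the TXNIP values cannot decide pairing. In the WT cohort each RT list correlated best with its own number. A crossed block, added after seeing the data, called 2 and 3 members in TXNIP WT and KO. Read depth is not in the lists, so precision rests on 2 or 3 lists per group. For H3K27ac the spread was pooled over all groups of the shared fit. The SE of a TXNIP comparison is therefore not the spread of its own lists alone.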
